A study of Mus musculus with 34 samples.

Results

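Cytosolic heat shock chaperones in the mouse heart were read from 18 array probes whose RefSeq accession belongs to 10 genes: Hsph1, Hspa1a, Hspa1b, Hspa8, Hsp90aa1, Hsp90ab1, Dnaja1, Dnajb1, Hspb1 and Cryab. None of the 18 was lost to the filter for dim spots, and the 10 genes were among 19806 genes tested on 34 arrays. The study asked how the heart's transcripts differ after carbon black nanoparticles reach the lung. All mice were female C57BL/6 bought at 5 to 6 weeks of age, and each received 40 µl into the trachea. The exposed mice were given Printex 90, a powder of carbon black nanoparticles, at 162 µg each. Controls were given the vehicle: 0.9% NaCl in MilliQ water with 10% by volume of acellular lavage fluid from the lungs of C57BL/6 mice. Hearts were taken at day 1 (6 controls and 6 exposed mice), day 3 (6 controls and 5 exposed) and day 28 (6 controls and 5 exposed). RNA came from a random section of the heart holding both ventricles, so the share of atrium, fat and vessel could vary between mice. Each array compared the RNA of 1 heart (200 ng, labelled with Cy5) with Universal Mouse Reference RNA, a commercial mixture (Cy3), and a value here is the log2 ratio of heart to reference.

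These proteins keep other proteins folded. HSP70 proteins (Hspa1a and Hspa1b, which heat and other stresses induce, and Hspa8, made in nearly all cells) hold and release unfolded chains with ATP; J proteins such as Dnaja1 and Dnajb1 bring chains to them and start ATP hydrolysis, and Hsph1 (HSP110) exchanges their nucleotide. HSP90 proteins (the inducible Hsp90aa1 and the steadily made Hsp90ab1) finish the folding of kinases and steroid receptors, and the small heat shock proteins Hspb1 and Cryab bind unfolding proteins without ATP, Cryab being abundant in heart muscle. Heat shock factor 1 induces many of these genes by binding heat shock elements, inverted repeats of GAA in their promoters.

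Promoter windows of 6 of the 10 genes were matched by symbol in RefSeq's table (build GRCm38.p6), and the 5 genes with a heat shock element core are shown. A link between these cores and the levels of the members was not tested. Each line gives the 250 bases before an annotated start of transcription, on the gene's strand, with the core (GAANNTTC or TTCNNGAA, searched on both strands) in capitals. Hspa1a lies at chr17:34972157-34972406 (minus strand), Hspa1b at chr17:34959239-34959488 (minus), Hsph1 at chr5:149636316-149636565 (minus), Dnaja1 at chr4:40722218-40722467 (plus) and Hspb1 at chr5:135887669-135887918 (plus).
Hspa1a: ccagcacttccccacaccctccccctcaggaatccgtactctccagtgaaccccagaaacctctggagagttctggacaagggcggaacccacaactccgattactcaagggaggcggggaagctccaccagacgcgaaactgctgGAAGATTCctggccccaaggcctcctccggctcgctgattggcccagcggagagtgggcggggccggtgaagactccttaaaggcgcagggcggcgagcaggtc
Hspa1b: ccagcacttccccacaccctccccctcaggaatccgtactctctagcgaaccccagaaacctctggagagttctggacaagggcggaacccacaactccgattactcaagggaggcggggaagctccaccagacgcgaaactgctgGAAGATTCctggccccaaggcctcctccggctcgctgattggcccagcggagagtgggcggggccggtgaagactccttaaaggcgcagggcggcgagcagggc
Hsph1: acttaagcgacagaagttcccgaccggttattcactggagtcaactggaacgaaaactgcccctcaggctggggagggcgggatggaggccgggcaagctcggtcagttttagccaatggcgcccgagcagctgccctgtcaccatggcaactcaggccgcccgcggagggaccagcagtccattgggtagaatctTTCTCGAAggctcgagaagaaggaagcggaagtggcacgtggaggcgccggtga
Dnaja1: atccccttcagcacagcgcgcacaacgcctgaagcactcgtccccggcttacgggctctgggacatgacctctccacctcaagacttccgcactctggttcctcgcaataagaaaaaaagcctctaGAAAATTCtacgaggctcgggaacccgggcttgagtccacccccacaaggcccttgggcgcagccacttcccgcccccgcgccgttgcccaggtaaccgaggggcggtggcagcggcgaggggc
Hspb1: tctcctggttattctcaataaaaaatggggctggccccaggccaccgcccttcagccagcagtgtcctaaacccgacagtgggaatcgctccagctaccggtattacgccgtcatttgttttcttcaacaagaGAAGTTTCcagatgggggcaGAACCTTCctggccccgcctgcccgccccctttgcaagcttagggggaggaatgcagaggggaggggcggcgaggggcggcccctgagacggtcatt

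The Hspa1a and Hspa1b windows are identical at 247 of 250 bases (98.8%), and their core, GAAGATTC, lies 104 bases before the start in both. The Hsph1 core, TTCTCGAA, lies 54 bases before the start shown and 33 bases before a second annotated start. The first Dnaja1 window has GAAAATTC at 124 bases, while the windows of its 2 other starts hold no core. Hspb1 is the member with 2 cores, GAAGTTTC at 117 and GAACCTTC at 97 bases. Neither of the 2 Dnajb1 windows holds one. A core was found in 6 of the 10 member windows and in 12.8% of all 32851 windows of this length. The 6 are not separate finds, because the Hsph1 windows overlap and hold the same core, and those of Hspa1a and Hspa1b are near-identical. The longer element of 3 alternating units (GAANNTTCNNGAA or TTCNNGAANNTTC), which contains overlapping cores, was found in 0 of the 10 and in 0.466% of all windows. A match describes these letters and does not show that a factor binds there.

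The arrays lay on 14 slides scanned on 7 days, 42.8% to 66.6% of the spots on an array were well above background, and no spot of either channel was saturated. The 10 cardiomyocyte markers that define the labelled tissue all passed the filter. Other tissue varied between sections: 5 arrays (control day 1 replicate 2, control day 28 replicate 2, control day 3 replicate 4, and the carbon black replicates 2 of day 3 and 6 of day 1) had the lowest levels of 4 atrial markers, the 3 highest levels of airway markers were in control day 3 replicates 1, 5 and 6, and the control day 3 replicates 4, 5 and 6 were the 3 control arrays highest in liver markers. Every array at the fourth position of a slide held an exposed mouse. Within a slide and scan day, 10 pairs of a control and an exposed mouse could be compared (4 at day 1, 3 at day 3 and 3 at day 28). In every pair the control lay at the first position and the exposed mouse at the fourth, so exposure and position cannot be told apart there. The labels number no replicates, so the replicate numbers used here follow the order of deposit.

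Both small heat shock proteins were far above the reference RNA in every heart on the probe used. Cryab, the crystallin of heart muscle, had group means between 4.03 ± 0.44 (SD, n = 6, control day 3) and 4.27 ± 0.29 (SD, n = 6, control day 28), a ratio of 16.3 to 19.3. The second Cryab probe gave lower group means, between 1.65 (control day 3) and 1.96 (carbon black day 3), so the size of this ratio depends on the probe. Hspb1 had group means between 2.21 ± 0.22 (SD, n = 6, carbon black day 1) and 2.60 ± 0.26 (SD, n = 6, control day 28). On the probe used, the 2 stress-inducible HSP70 genes were above the reference in every group mean. Hspa1a lay between 0.99 and 1.95, and Hspa1b between 0.176 (SD 0.237, n = 6, carbon black day 1) and 1.098 (SD 1.038, n = 6, control day 3). The second and dimmer Hspa1b probe had group means from -0.225 (carbon black day 1) to 0.088 (carbon black day 3). The means of Hsph1, Hspa8, Hsp90aa1, Hsp90ab1, Dnaja1 and Dnajb1 were all below 0 in every group on the probe used. The other Dnaja1 probes were instead above 0 in every group but carbon black day 1, where they were at -0.31 and -0.03. Hsp90aa1 in carbon black day 1, for example, was at -1.60 ± 0.44 (SD, n = 6). A ratio to the reference describes the heart against a mixture of other cells and does not rank the amounts of these transcripts against each other.

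**Figure D1:**
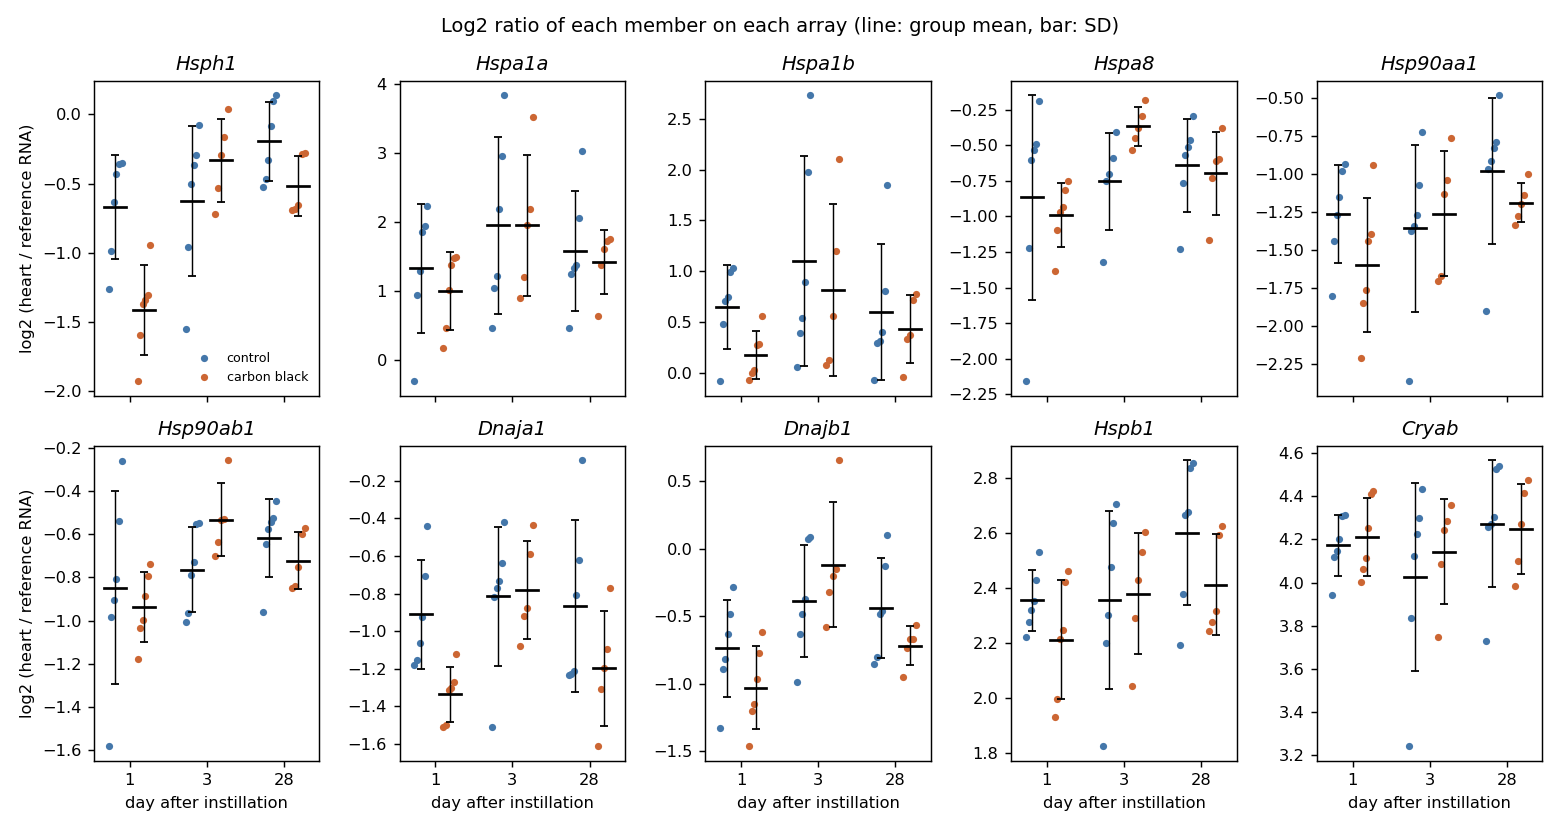
Each panel plots the log2 ratio of heart to reference RNA for 1 member on every array, by day after instillation (1, 3 and 28), with controls in blue and carbon black in orange; lines are group means and bars are SD (n = 5 or 6 arrays, and 5 for Hspa8 in control day 3). Hsph1 in carbon black day 1 lies between -1.93 and -0.94, while in carbon black day 3 it lies between -0.72 and 0.04, and Hspa1a and Hspa1b spread most between arrays of 1 group.

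The first question was whether exposed and control hearts differed at each day. At day 1, 0 of the 10 members passed limma's test (Benjamini-Hochberg over all genes at 0.05), as 0% of all genes did, while 2 members and 7.21% of all genes had an unadjusted p under 0.05. At day 3, 0 members and 0% of genes passed, and 0 members and 11.1% of genes had such an unadjusted p. At day 28 the counts were 0 members and 0% of genes adjusted, and 0 members and 2.98% of genes unadjusted. Averaged over the 3 days, 1.95% of genes passed and 0 members did, with 2 members and 18.3% of genes at an unadjusted p under 0.05. The test of whether the exposure difference changed between days passed for 0 members and 0% of genes, and 1 member and 1% of genes had an unadjusted p under 0.05. In none of the 3 days was a member's exposed group separate from its control group, against 0.358% of genes at day 1, 0.899% at day 3 and 0.379% at day 28. A bulk measurement cannot tell fewer cells of a type from less RNA per cell, which holds for every difference given here.

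Hsph1, the nucleotide exchange factor, had the lowest p of the members at day 1. Its controls ranged from -1.26 to -0.35 with a median of -0.53, and the exposed mice from -1.93 to -0.94 with a median of -1.36. All 6 exposed mice lay below the control mean, and the ranges overlapped through control replicates 3 and 5. The difference was -0.74 ± 0.20 (SE; 95% interval -1.16 to -0.33), a fold of 0.598, with an adjusted p of 0.449 in limma. It was below 0 in 4 of 4 same-slide pairs of day 1, by -0.33 to -1.58. At day 3 its difference was 0.29 ± 0.21 (SE) and at day 28 it was -0.32 ± 0.21 (SE). The F test of a change between days gave Hsph1 an F of 6.25 with an unadjusted p of 0.0052, which did not pass after adjustment over all genes (adjusted p 1.00).

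Among the J proteins, Dnaja1 at day 1 ranged from -1.18 to -0.44 in controls (median -0.99) and from -1.51 to -1.12 in exposed mice (median -1.31). All 6 exposed values were below the control mean, and both groups held values between -1.18 and -1.12. The difference was -0.43 ± 0.18 (SE; adjusted p 0.643, limma), and its other probes gave -0.33 and -0.28. All 4 same-slide pairs of day 1 were below 0. At day 28 Dnaja1 had a difference of -0.33 ± 0.19 (SE) and at day 3 of 0.03 ± 0.19 (SE). Dnajb1 had -0.29 ± 0.20 (SE) at day 1, 0.27 ± 0.21 (SE) at day 3 and -0.28 ± 0.21 (SE) at day 28, none past the test.

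Among the HSP70 and HSP90 genes, the inducible Hspa1a and Hspa1b had the widest intervals of the members. Hspa1b at day 1 ranged from -0.09 to 1.03 in controls (median 0.73) and from -0.07 to 0.55 in exposed mice (median 0.15), with all 6 exposed mice below the control mean. Its difference was -0.47 with a 95% interval from -1.21 to 0.27, which includes 0. Hspa1a had -0.33 at day 1 with an interval from -1.34 to 0.69, and 0.00 at day 3 with an interval from -1.07 to 1.07. Without the 3 control day 3 arrays highest in airway markers, the day 3 difference was 1.04 for Hspa1a and 0.48 for Hspa1b in place of -0.28, neither past the test (adjusted p 0.933 for both, limma). Hspa8 had -0.12 ± 0.22 (SE) at day 1 and 0.39 ± 0.24 (SE) at day 3, the highest day 3 difference of the members, with all 5 exposed mice above the control mean; 1 control array of day 3 was left out of the Hspa8 fit because its spot was marked as an outlier. Hsp90aa1 had -0.34 ± 0.23 (SE) at day 1, and Hsp90ab1 had -0.09 ± 0.14 (SE) at day 1 and 0.23 ± 0.15 (SE) at day 3.

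The small heat shock proteins had intervals that lay close to 0. Cryab differed by 0.04 (95% interval -0.28 to 0.35) at day 1, by 0.12 (-0.21 to 0.45) at day 3 and by -0.02 (-0.35 to 0.31) at day 28. Hspb1 differed by -0.14 (-0.41 to 0.13), 0.02 (-0.26 to 0.31) and -0.19 (-0.48 to 0.10) at the same days. All 6 intervals include 0.

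Over the 3 days together, Dnaja1 (-0.24 ± 0.11, SE, adjusted p 0.226) and Hsph1 (-0.26 ± 0.12, SE, adjusted p 0.247) were the 2 members with an unadjusted p under 0.05 in limma. The median over the 10 members was -0.31 at day 1 with 9 of 10 below 0, 0.11 at day 3 with 9 of 10 above 0, -0.18 at day 28 with 10 of 10 below 0, and -0.13 for the mean of the days with 7 of 10 below 0, beside medians over all genes of -0.00, 0.01, 0.01 and 0.00. With median centring in place of loess normalization the members' medians were instead 0.21, 0.56, -0.00 and 0.28, and those of all genes were 0.21, 0.29, 0.08 and 0.19. Relative to all genes, the members at day 1 were thus level under that scaling (3 of 10 below 0), while under each of the other settings tried 8 to 10 of the 10 were below 0 at day 1. Without the 3 control day 3 arrays highest in liver markers, the median at day 3 was -0.06, and without the 3 control day 3 arrays highest in airway markers it was 0.30.

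Markers of other cell types also differed between the arms at day 1, with 0 past the adjusted test in limma. All 8 fibroblast markers were below 0 (median difference -0.88, 6 with an unadjusted p under 0.05), and their level was -0.87 to 0.49 on control arrays and -2.10 to -0.02 on exposed arrays. All 6 smooth muscle and pericyte markers (median -0.65, 0 unadjusted; -1.59 to 0.48 and -2.38 to 0.11) and all 6 measured macrophage markers (median -0.56, 3 unadjusted; -0.44 to 0.29 and -1.61 to 0.20) were below 0, as were 4 of 5 measured liver markers (median -1.76, 3 unadjusted; -0.04 to 2.51 and -1.03 to 1.37). With median centring the medians were -0.41, -0.13, -0.24 and -1.47 for these 4 lists. Other lists went the other way. The T and B cell list had a median level of -0.08 on control arrays (-0.24 to 0.30) and 0.47 on exposed arrays (-0.28 to 1.30). The neutrophil list had -0.09 (-0.30 to 0.12) and 0.38 (-0.64 to 1.24). The part of all these lists in the members' differences at day 1 was not tested.

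**Figure D2:**
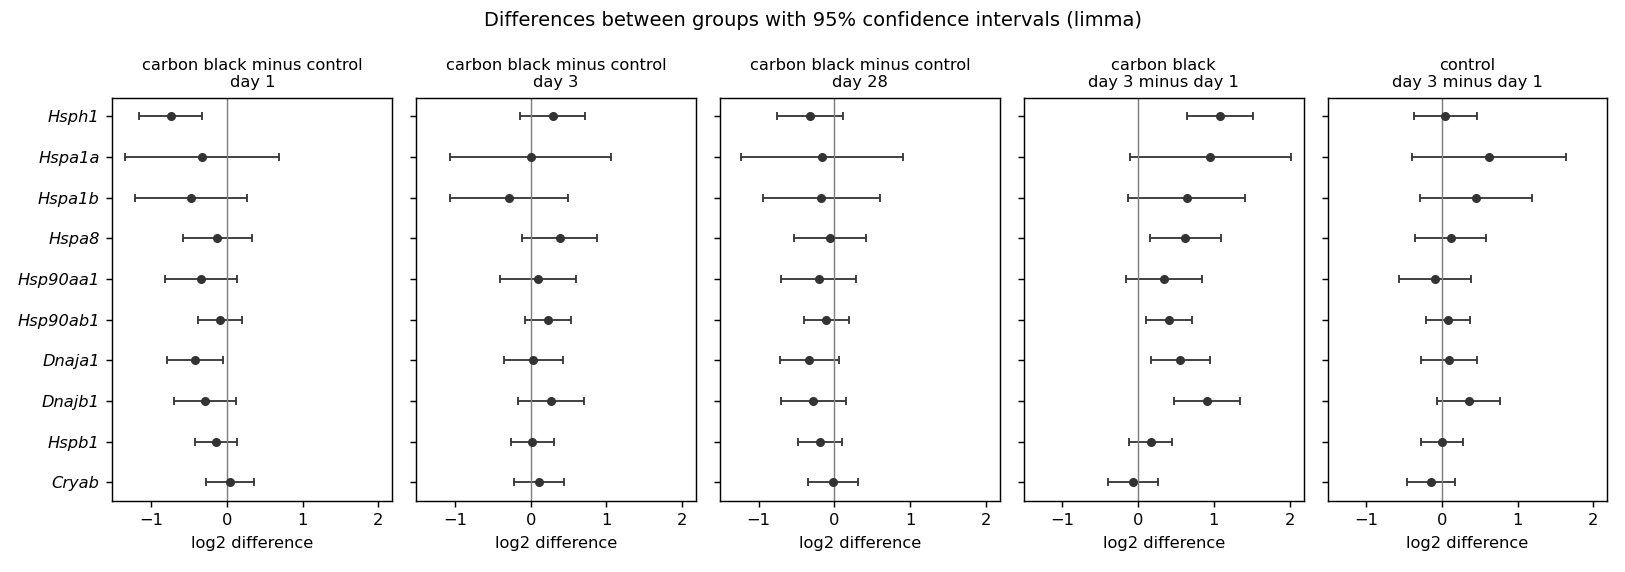
Points are log2 differences between group means for the 10 members and bars are 95% confidence intervals from the limma fit; the first 3 panels give carbon black minus control at day 1, 3 and 28, and the last 2 give day 3 minus day 1 within exposed mice and within controls. Hsph1, at 1.08 between days in exposed mice, stands beside 0.05 in controls, and no member passed the adjusted test in any panel.

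The second question was how the levels moved with time within each arm. Between day 1 and day 3 of the exposed mice, 5 of the 10 members had groups that did not overlap, with every day 3 mouse above every day 1 mouse: Hsph1, Dnajb1, Dnaja1, Hspa8 and Hsp90ab1. The same was true, in either direction, of 0.798% of all genes. At an unadjusted p under 0.05 there were again 5 members and 5.44% of genes, and after adjustment 0 members and 0% of genes passed in limma. The median over the members was 0.59, with 9 of 10 above 0, and that over all genes was 0.02; with median centring these were 0.56 and 0.06.

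Hsph1 ranked 4 among all genes by p in that comparison. Its day 3 values were -0.53, -0.30, 0.04, -0.72 and -0.16, against -1.93 to -0.94 (median -1.36) at day 1, so the highest day 1 value was below the lowest day 3 value. The difference was 1.08 ± 0.21 (SE; 95% interval 0.65 to 1.51), with an adjusted p of 0.0827 in limma. It crossed the threshold with Agilent's processed signals (1.06, adjusted p 0.0057), with array weights (1.15, adjusted p 0.00174), without the 3 control arrays highest in liver markers (1.08, adjusted p 0.0321), without carbon black day 1 replicate 3 (1.18, adjusted p 0.0321) and without control day 3 replicate 4 (1.08, adjusted p 0.04). With median centring the difference was 1.09 with an adjusted p of 1.00, with slide as a block it was 1.02 with an adjusted p of 0.763, and with scan day as a block 1.06 with an adjusted p of 0.136. Over these and all other settings it stayed between 0.98 and 1.18.

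Dnajb1, the stress-inducible J protein, had day 3 values of -0.20, -0.32, 0.66, -0.15 and -0.58 against -1.47 to -0.62 (median -1.06) at day 1. The groups are separated by the narrow gap from -0.62 to -0.58, and the difference was 0.91 ± 0.21 (SE; adjusted p 0.243, limma). Its second probe gave 0.26 ± 0.19 (SE; adjusted p 0.955 over all probes, limma). Dnaja1 had day 3 values of -0.92, -0.88, -0.43, -0.59 and -1.08, all above the -1.12 of the highest day 1 mouse, and a difference of 0.56 ± 0.19 (SE; adjusted p 0.702, limma); its other probes gave 0.66 and 0.33. Hspa8 was between -0.53 and -0.18 at day 3 and between -1.38 and -0.75 at day 1, a difference of 0.62 ± 0.23 (SE), and its second probe gave 0.51 ± 0.28 (SE). Hsp90ab1 was between -0.70 and -0.26 at day 3 and between -1.18 and -0.74 at day 1, a difference of 0.41 ± 0.15 (SE). The intervals of Hspa1a (-0.11 to 2.02), Hspa1b (-0.14 to 1.41), Hsp90aa1 (-0.16 to 0.84), Hspb1 (-0.12 to 0.45) and Cryab (-0.40 to 0.26) include 0.

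Marker lists of other cell types differed in the same comparison, although 0 of the markers passed the adjusted test in limma; those with an unadjusted p under 0.05 were 5 fibroblast, 4 macrophage, 2 endothelial, 1 liver and 0 adipocyte genes. Of 8 fibroblast markers, 8 were above 0 with a median difference of 0.92, and their level was -2.10 to -0.02 on the day 1 arrays and -0.54 to 0.53 on the day 3 arrays of exposed mice (log2 deviation from each gene's median). Of 6 measured macrophage markers, 6 were above 0 (median 0.52; -1.61 to 0.20 at day 1, -0.20 to 0.34 at day 3), and of 6 endothelial markers, 6 were (median 0.58; -2.39 to 0.16 and -0.16 to 0.44). The 5 measured of 8 liver markers (median 1.40; -1.03 to 1.37 and -0.19 to 2.67) and the 5 measured of 6 adipocyte markers (median 1.26; -5.36 to 1.03 and -1.71 to 0.84) were all above 0 too. The 10 cardiomyocyte markers had a median of 0.05, with 6 above 0. The median levels of the T and B cell list (0.47 at day 1, 0.02 at day 3) and the neutrophil list (0.38 and 0.09) were instead lower at day 3. The part of these lists in the members' differences was not tested.

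In controls the same interval gave 0 members and 0% of genes past the adjusted test, and 0 members and 2.04% of genes unadjusted. Hsph1 differed by 0.05 ± 0.20 (SE) there and Dnajb1 by 0.35 ± 0.20 (SE). Between day 1 and day 28, controls had 0 members and 0% of genes adjusted, and 1 member and 1.18% of genes unadjusted; that member was Hsph1 (0.48 ± 0.20, SE), whose control values at day 28 ranged from -0.52 to 0.14. Between day 3 and day 28 in controls the counts were 0 members and 0% adjusted, and 1 member, Hsph1 again (0.43 ± 0.20, SE), and 4.45% unadjusted. In exposed mice from day 1 to day 28 they were 0 members and 0% adjusted, and 1 member and 4.28% unadjusted. That member was Hsph1, whose day 28 values of -0.65, -0.28, -0.69, -0.29 and -0.68 were all above the day 1 group, as in 0.409% of genes whose groups were separate in either direction; its difference was 0.89 ± 0.21 (SE; adjusted p 0.997, limma). From day 3 to day 28 exposed mice gave 0 members and 0% adjusted, and 2 members and 1.36% unadjusted: Dnajb1 at -0.60 ± 0.22 (SE) and Dnaja1 at -0.42 ± 0.20 (SE). The comparisons within an arm share groups, so they are not independent of each other or of the exposure differences.

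Ordered by group mean, Hsph1 ran from carbon black day 1 (-1.41) through control day 1 (-0.67), control day 3 (-0.62), carbon black day 28 (-0.52) and carbon black day 3 (-0.33) to control day 28 (-0.19). Within-group SDs were between 0.22 and 0.54, so no neighbouring groups but the 2 lowest were further apart than these SDs.

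**Figure D3:**
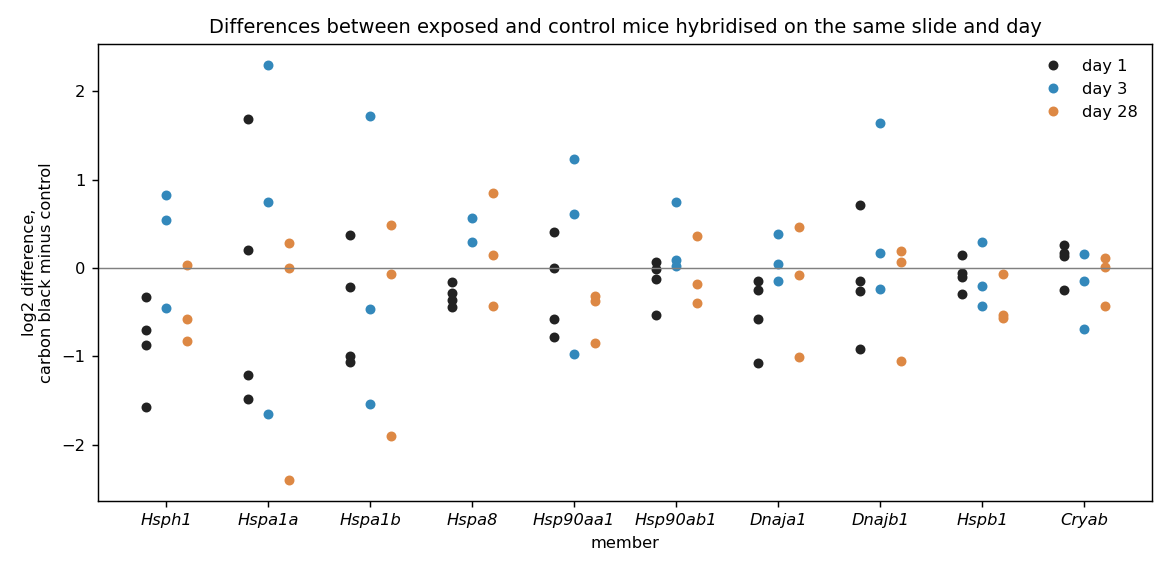
Points are log2 differences, carbon black minus control, between an exposed and a control mouse hybridised on the same slide and scanned on the same day, for each member (day 1 in black, day 3 in blue, day 28 in orange; 10 pairs, and 9 for Hspa8). Hsph1, Dnaja1 and Hspa8 lie below 0 in all 4 pairs of day 1, and Hspa1a ranges from -2.40 to 2.30 over the 10 pairs. The control lay at the first slide position and the exposed mouse at the fourth in every pair.

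The stress-inducible HSP70 genes varied most between mice of 1 group. The within-group SD of Hspa1a was 0.907, larger than that of 98.1% of all genes, and its values spanned a 17.8-fold range; the SD of Hspa1b was 0.658, larger than in 94.6% of genes, over a 7.07-fold range. The steadily made Hsp90ab1 (0.245) and the small heat shock proteins Hspb1 (0.231) and Cryab (0.271) lay near the median SD over all genes of 0.261. Hspa8, also steadily made, had an SD of 0.397, larger than in 78.4% of genes, and the inducible Hsp90aa1 had 0.418, larger than in 80.9%. Hspa1a was highest on control day 3 replicate 1 at 3.83 and carbon black day 3 replicate 3 at 3.52, and lowest on control day 1 replicate 2 at -0.32. Hspa1b was highest on the same 2 arrays (2.73 and 2.11) and lowest on the array where Hspa1a was lowest (-0.09).

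Members also varied together. With group means removed, 13 of 45 pairs correlated over the arrays past a permutation test within groups (Pearson, adjusted over the 45 pairs), all positively. The share of such pairs among other genes was not computed, so the count does not show that the members vary together more than other genes do. Hspa1a and Hspa1b had r = 0.915 and rho = 0.891 over 34 arrays (permutation p 1e-05 for each, the smallest that 100000 resamples can give; adjusted p 0.00045), and r = 0.901 without the 2 farthest arrays. With slide means removed in place of group means r was 0.873, and with scan day means removed in their place it was 0.896; both leave differences between groups in the values. These 2 genes both lie on chromosome 17 and have near-identical transcripts, the files give no probe sequences, and cross-hybridisation between their probes was not tested. The 2 Hspa1a probes had r = 0.953 with each other and the 2 Hspa1b probes 0.753, the dimmer of the latter being well above background on 9 of 34 arrays.

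The small heat shock proteins formed another pair: Hspb1 and Cryab had r = 0.768 and rho = 0.652 (permutation p 7e-05 and 0.00042, adjusted p 0.00105 and 0.00472), and r = 0.633 without the 2 farthest arrays. Hspa8 and Hsp90ab1, the steadily made HSP70 and HSP90, had r = 0.733 and rho = 0.569 over 33 arrays (permutation p 0.00047 and 0.00206, adjusted p 0.00423 and 0.00927), and 0.496 without the 2 farthest. The J proteins Dnaja1 and Dnajb1 had r = 0.619 and rho = 0.588 (permutation p 0.00042 and 0.00089, adjusted p 0.00423 and 0.00572), and 0.582 without the 2 farthest. Hsph1 and Hspa8 had r = 0.557 and rho = 0.571 (permutation p 0.00272 and 0.00119, adjusted p 0.0122 and 0.006), and 0.582 without the 2 farthest. The inducible Hspa1a and Hsp90aa1 had r = 0.751 and rho = 0.684 (permutation p 3e-05 and 9e-05, adjusted p 0.000675 and 0.00202), 0.701 without the 2 farthest, and 0.575 without the 5 arrays lowest in atrial markers. With slide means removed in place of group means, r was 0.657 for Hspb1 and Cryab, 0.769 for Hspa8 and Hsp90ab1, 0.573 for the J proteins and 0.632 for Hsph1 and Hspa8. With scan day means removed in place of group means, r in the same order was 0.673, 0.768, 0.675 and 0.694, and it was 0.717 for Hspa1a and Hsp90aa1. These values hold the differences between groups as well as those between mice of a group. The 2 HSP90 genes did not pass, with r = 0.094 and rho = 0.192 (permutation p 0.601 and 0.318, adjusted p 0.819 and 0.494). With median centring, which removes each array's median ratio but not a trend of the ratio with intensity, 39 of the 45 pairs passed. With loess normalization and without carbon black day 3 replicate 3 the count was 8.

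**Figure D4:**
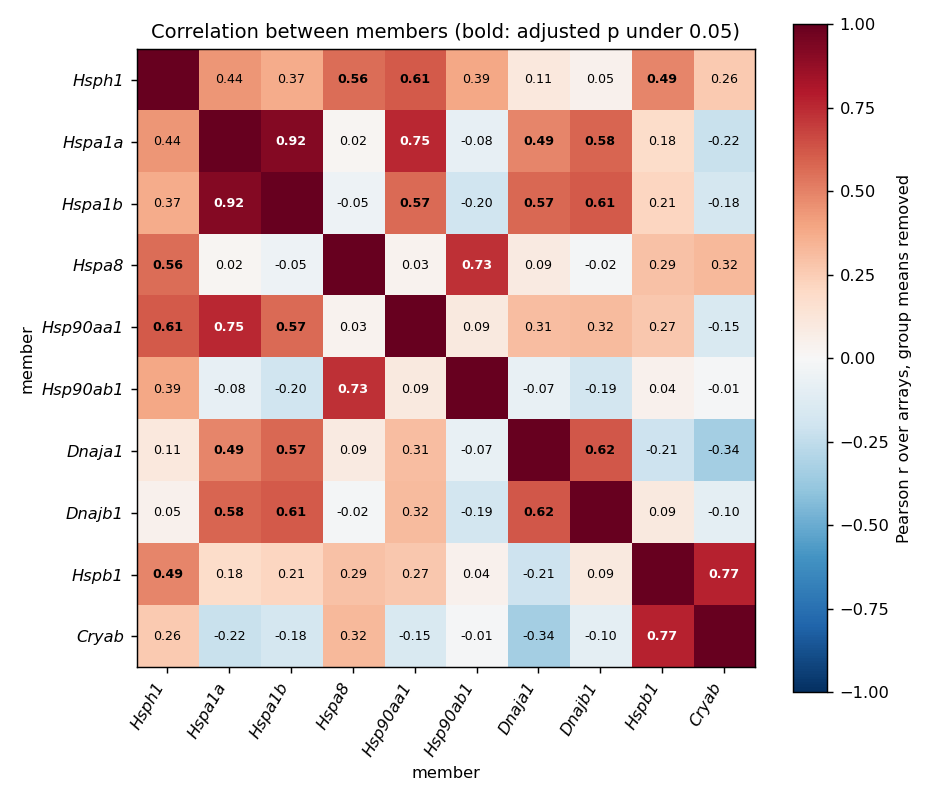
Colours and numbers give Pearson's r between each pair of the 10 members over the arrays after group means were removed (n = 34, and 33 for pairs with Hspa8); bold marks a permutation p under 0.05 after adjustment over the 45 pairs. The 13 bold pairs are all above 0, with Hspa1a and Hspa1b the closest.

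The members were also set against the levels of 18 lists of marker and context genes (180 relations). Here 5 arrays stood apart: those lowest in atrial markers, between -4.23 and -1.33, 4 of which were also at -5.36 to -5.21 for adipocyte markers. Hspa1a was the lowest value of its group on 5 of these 5 arrays, and Hsp90aa1 on 4 of 5 with the other array second lowest. Dnaja1 was lowest of its group on 0 of them and Hspb1 on 0. Over the 29 other arrays, 0 of the 180 relations passed the permutation test adjusted over all of them, against 18 with the 5 arrays included. Among those 29, Hsp90aa1 against the atrial list had r = -0.153 (permutation, adjusted p 0.735) and Hspa1a against the adipocyte list had r = 0.494 (permutation, adjusted p 0.118). The 29 include carbon black day 28 replicate 3, which was at -5.12 for adipocyte markers but at 0.101 for atrial markers. That array held the lowest Hspa1a (0.63) and Hsp90aa1 (-1.33) of its group, but not the lowest Dnaja1 (-1.10) or Hspb1 (2.28).

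Relations with other lists are given next, with slide or scan day means removed in place of group means where so stated. Cryab and the cardiomyocyte list had r = 0.597 and rho = 0.634 over 34 arrays (permutation p 0.00034 and 0.00026, adjusted p 0.00874 and 0.00936), 0.627 without the 2 farthest arrays, 0.519 with slide means and 0.577 with scan day means removed, and 0.624 over the 29 arrays (adjusted p 0.118). Hspb1 and the skeletal muscle list, which shares striated muscle genes with the heart, had r = 0.564 and rho = 0.543 (permutation p 0.0016 and 0.00328, adjusted p 0.0285 and 0.0526), 0.486 without the 2 farthest, 0.449 with slide means removed, 0.307 with scan day means removed, and 0.634 over the 29 (adjusted p 0.118). Dnajb1 and the 5 measured liver markers had r = 0.594 and rho = 0.553 (permutation p 0.00174 and 0.00342, adjusted p 0.0285 and 0.0526), 0.683 without the 2 farthest, 0.465 with slide means and 0.518 with scan day means removed, and 0.498 over the 29 (adjusted p 0.265). Hspa1a and the airway list had r = 0.602 and rho = 0.526 (permutation p 0.00332 and 0.00632, adjusted p 0.0368 and 0.0711), 0.485 with slide means and 0.598 with scan day means removed, 0.599 over the 29 (adjusted p 0.239), and r = 0.220 without the 3 arrays highest in airway markers, where Hspa1a stood at 3.83, 2.18 and 2.95 and Hspa1b at 2.73, 0.89 and 1.98, the 3 highest of their group. Hsph1 passed with no list; its lowest adjusted p was 0.0864, for Cirbp, the measured member of the pair of cold-inducible RNA-binding proteins (r = -0.490, rho = -0.455, permutation), and without the 3 arrays highest in airway markers that relation had r = -0.648 (permutation, adjusted p 0.0142).

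**Figure D5:**
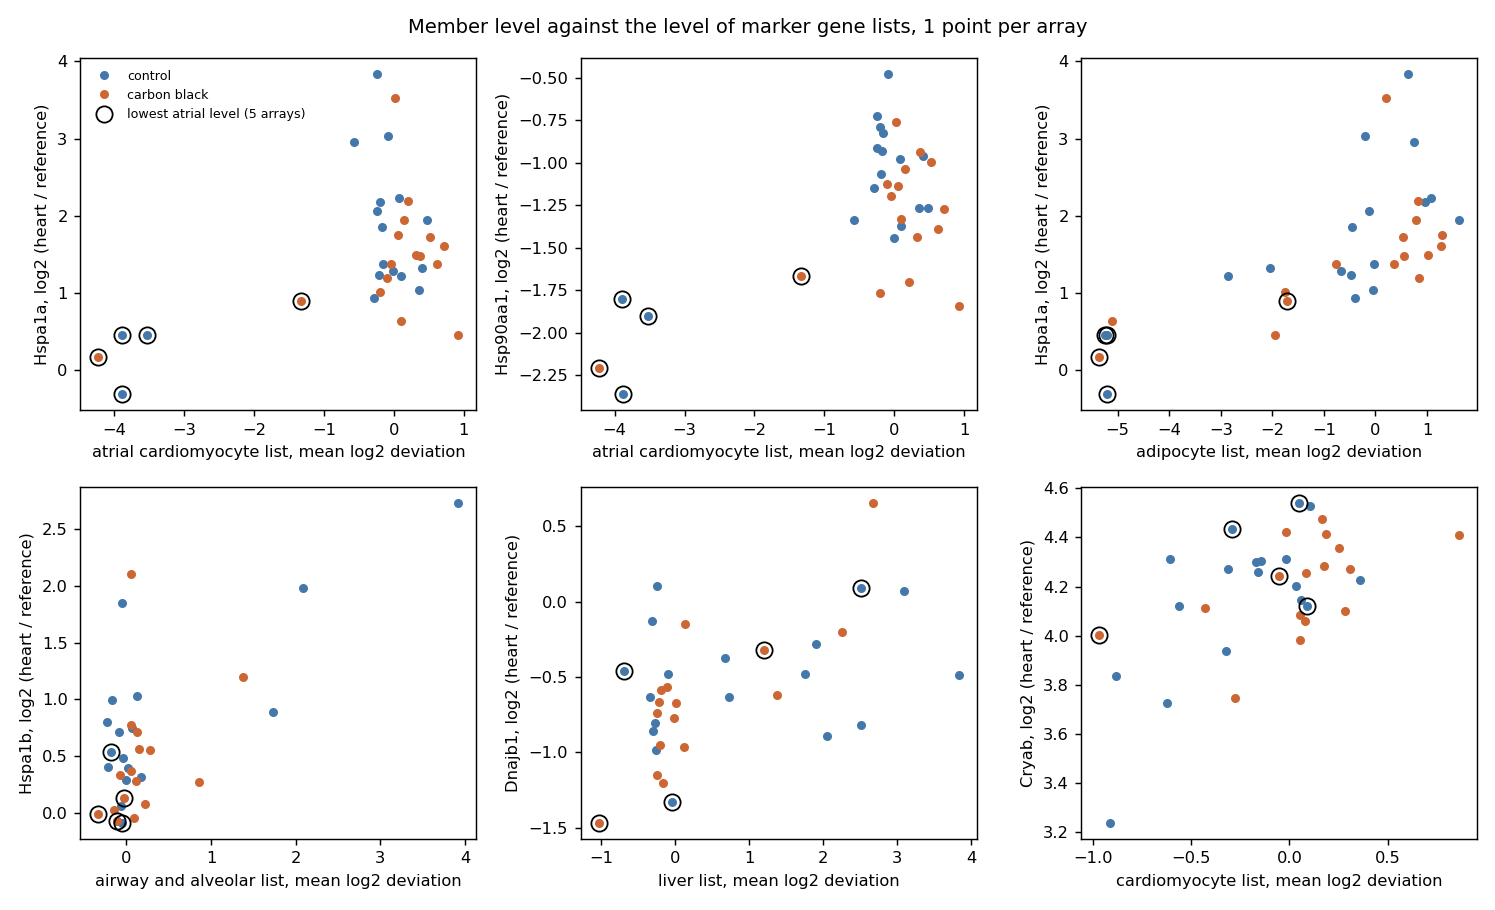
Each point is 1 array (34 in all), with a member's log2 ratio on the vertical axis and the mean log2 deviation of a marker list from each gene's median on the horizontal axis; controls are blue, carbon black is orange, and circles mark the 5 arrays lowest in atrial markers. The circled arrays hold low Hspa1a and Hsp90aa1 values, and the array highest in airway markers, at 3.92, also has the highest Hspa1b.

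Partners and relatives of the members were taken from lists of other chaperones. Of 20 co-chaperones of HSP70 and HSP90, 1 passed for the mean of the 3 days, beside 1.95% of all genes: Cacybp, a binding partner of SIAH1, at -0.28 ± 0.07 (SE; adjusted p 0.0402, limma). That call was lost with slide, scan day or array position as a block and with Agilent's processed signals, under each of which 0 genes passed. As a lower call it was also lost with median centring, where 1336 genes were called higher and 0 lower. The same held without the 3 arrays highest in airway markers (4 higher, 0 lower) and without the 3 control arrays highest in liver markers (1 higher, 0 lower). Fkbp5, the FK506-binding co-chaperone of steroid receptors and a glucocorticoid target, had 1.07 ± 0.30 (SE; adjusted p 0.0521), Ahsa1, which activates the ATPase of HSP90, had -0.17 ± 0.05 (SE; adjusted p 0.0629), and Bag1, a nucleotide exchange factor, had 0.39 ± 0.15 (SE; adjusted p 0.141). At day 1 the co-chaperones had a median of -0.12 with 17 of 20 below 0, led by Cacybp (-0.51 ± 0.11, SE), Ahsa1 (-0.32 ± 0.08, SE), Fkbp5 (1.61 ± 0.50, SE) and Stip1, which links HSP70 to HSP90 (-0.33 ± 0.13, SE); 0 of the 20 passed. With median centring that median was 0.32, beside 0.21 for all genes. Between day 1 and day 3 of exposed mice, 19 of the 20 were above 0 with a median of 0.15, and 0 passed.

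Of 7 other HSP70 and HSP110 proteins 0 passed for the mean of the days in limma, with 1 at an unadjusted p under 0.05, which 18.3% of all genes reached: Hspa14 (-0.19 ± 0.05, SE; adjusted p 0.0535). Of 7 measured J proteins 0 passed, with 1 unadjusted, Dnajc7 (0.50 ± 0.14, SE; adjusted p 0.0515). Of 5 measured small heat shock proteins 0 passed, with 1 unadjusted, the heart-enriched Hspb7 (0.38 ± 0.12, SE; adjusted p 0.0734). Of 9 measured endoplasmic reticulum chaperones 0 passed, with 2 unadjusted: Calr (-0.24 ± 0.08, SE; adjusted p 0.116) and Hspa5, the HSP70 of that compartment (0.51 ± 0.19, SE; adjusted p 0.144). Of 6 mitochondrial chaperones 0 passed and 0 had such an unadjusted p, the first being Hspe1 (-0.12 ± 0.09, SE), which had -0.37 ± 0.16 (SE) at day 1 and 0.51 ± 0.16 (SE) between day 1 and day 3 of exposed mice. The factor Hsf1 had -0.05 ± 0.06 (SE), Hsf4 0.04 ± 0.06 (SE) and the binding protein Hsbp1 -0.01 ± 0.07 (SE) for the mean of the days, and at day 1 Hsf1 had -0.11 ± 0.10 (SE).

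The named genes outside the chaperone lists whose levels most resembled the mean of the members over the 34 arrays, with group means removed, were Tpd52l2 (r = 0.734), Ccn2 (0.721), Cdr2 (0.713), Creb3l2 (0.695), Tceal9 (0.694), Npnt (0.672), Btg3 (0.667), Tbrg1 (0.662), Mical2 (0.654) and Nat14 (0.654). Those most like Hspa1b were Drc1 (0.750), Cbr2 (0.681), Wfdc2 (0.677), Bcl6 (0.670), Dynlrb2 (0.668), Ccn2 (0.664), Mal2 (0.653), Npnt (0.652), Scgb1a1 (0.650) and Jund (0.650). Scgb1a1 is the club cell secretory protein of the airways, Cbr2 a lung carbonyl reductase, and Drc1 belongs to the dynein regulatory complex of motile cilia. These genes were picked as the closest of all named genes, so the values are descriptions without a test.

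Genes with over 1 probe showed how far a value depends on the probe. Over the arrays the probe used and the other probe had r = 0.617 for Hsp90ab1, 0.491 for Dnajb1, 0.387 for Hspa8 and 0.332 for Cryab, while the Dnaja1 probe had 0.790 and 0.706 with its 2 others. At day 1 the second Hspa8 probe gave -0.49 ± 0.27 (SE) where the probe used gave -0.12 ± 0.22 (SE), and the second Hsp90ab1 probe gave 0.09 ± 0.24 (SE) where the probe used gave -0.09 ± 0.14 (SE). Hsph1, Hsp90aa1 and Hspb1 rest on 1 probe each.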

How the data were processed

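Per the labels' protocols, heart RNA (Cy5) and reference RNA (Cy3) were amplified, labelled and hybridised to 2-colour arrays. The authors deposited each array's scanner output from Agilent Feature Extraction 10.1.1.1 (per the file headers), with spot intensity values for each channel and quality flags per spot; they also deposited a table of log2 ratios, which matched loess-normalized ratios without background correction (r 0.996 to 0.998 per array, slope 0.988 to 0.996, column medians -0.0554 to -0.0336, so its centring is near 0 and its direction is heart over reference). The genome build behind the probes was not used here.

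From the median intensities, background was corrected with normexp (offset 50), ratios were normalized within arrays by loess with control spots at weight 0, flagged spots were set to missing, and spots of 1 probe were averaged (R 4.3.3, limma 3.58.1). Probes were kept if the heart channel was well above background on a share of at least 0.5 of the arrays of 1 group, with at most 3 arrays missing. Of 41174 probes, 25258 were kept, and a gene took its probe with the highest mean heart signal. Accessions in the scanner files were matched to RefSeq symbols (GRCm38.p6). The 6 groups were fitted together in limma (28 residual degrees of freedom), with Benjamini-Hochberg adjustment over 19806 genes and a threshold of 0.05. Correlations were tested with 100000 permutations within groups. The fit was run on simulated data with independent noise for each gene, without slide, scan day or tissue differences. Correlations were run on simulated pairs of known r, without the permutation test. Each array is 1 mouse, and the number of arrays limits the precision.

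The members and gene lists were chosen with earlier results of these data known. Genes named outside the members are, in each chaperone list, up to 4 of smallest p for the mean of the days and for day 1, and the 10 genes most like the members' mean and like Hspa1b; Hspe1 between days, the fourth position and the 5 and 3 arrays that stand apart were described after their values were seen. Alternatives covered background, scaling, filters, probe choice, slide, scan day, position, weights and left-out arrays.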

Additional observations from a re-analysis of the deposited data

Results flagged for a closer look

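In 60 groups of 5 or 6 arrays (10 members in 6 groups), 3 held an array whose distance to the rest was above Dixon's 95% limit, about 1 in 20 groups, which is the share chance gives. Dnaja1 on control day 3 replicate 2 was at -1.51, with the nearest array of its group at -0.82. Hsp90aa1 on control day 28 replicate 2 was at -1.90, with the nearest at -0.96; this array is 1 of the 5 lowest in atrial markers. Cryab on control day 28 replicate 6 was at 3.73, with the nearest at 4.26.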

How the results depend on the processing

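No paired analysis was possible because the labels number no replicates, as far as pairing by replicate number goes; pairing by slide was made instead, with slide as a block and between mice on the same slide. No member was called in any comparison under the settings tried, except Hsph1 between day 1 and day 3 of exposed mice: 1 member was called with Agilent's processed signals, with array weights and without the 3 control arrays of highest liver level, and 0 to 1 when single arrays were left out. With median centring, 3 differences with an unadjusted p under 0.05 changed sign: Dnaja1 at day 1 (0.0164), Dnaja1 for the mean of the days (0.125) and Hsph1 for the mean of the days (0.127). Of the 100 member differences, 54 changed sign under some setting and 34 when 1 array was left out; the cause was not tested. Over all genes, the 386 calls for the mean of the days (262 higher, 124 lower) became 1487 without background correction, 1336 with median centring (all higher), 1498 in the authors' table (821 higher, 677 lower), 153 without the filter, 140 with probes averaged, 1372 with array weights, 1022 without the 5 arrays of lowest atrial level, 4 without the 3 of highest airway level, 1 without the 3 control arrays of highest liver level, and 0 with processed signals or with slide, scan day or position as a block; leaving out single arrays gave 0 to 947. Between day 1 and day 3 of exposed mice the 0 calls became 18 with processed signals, 55 with array weights, 1 without the liver-high or the airway-high arrays, and 0 to 10 leaving out single arrays; at day 1 they became 1 with scan day as a block and 0 to 3 leaving out single arrays, and at day 3 they were 0 to 1. The 13 correlated pairs became 39 with median centring and 8 to 15 leaving out single arrays; the 18 relations with gene lists became 0 without the 5 arrays of lowest atrial level and 22 without the 3 of highest airway level, alternatives chosen after seeing the data. Hspa1b's second probe, near background, limits what it can show.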
